A study of Homo sapiens with 9 samples.

Results

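The aminoacyl-tRNA synthetases are the enzymes that load each amino acid onto its transfer RNA (tRNA). In human cells they are encoded by separate sets of nuclear genes for the cytosol and for the mitochondrion. The 36 genes described here were chosen by name: 20 that encode cytosolic enzymes and 16, with names ending in 2, that encode mitochondrial ones. They are 36 of the 57773 annotated features in the data. Of these 36, 35 had enough reads to be tested, among 12901 tested genes. The exception was MARS2, the mitochondrial methionine enzyme, with 0 reads in all 9 libraries. The symbols are the older ones used in the files, in which WARS stands for the gene now called WARS1.

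The RNA came from HepG2 cells, a line derived from a human liver tumour and widely used in place of hepatocytes. They received TBOEP, tris(2-butoxyethyl) phosphate, for 72 h at 125 µM or at 2.5 µM in 0.1% DMSO, and controls received 0.1% DMSO alone. TBOEP is a flame retardant and plasticiser of the organophosphate ester class. Each of the 3 groups had 3 libraries, each from cells seeded, treated and extracted separately, and neither concentration was toxic to the cells, per the labels. All cultures came from 1 cell line kept at under 25 passages, so the spread between libraries is a spread between cultures of that line.

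A synthetase recognises its amino acid and its tRNAs, activates the amino acid with ATP and transfers it to the tRNA, and so sets which amino acid is read for each codon. Several of the cytosolic enzymes are held with the scaffold proteins AIMP1, AIMP2 and EEF1E1 in a multi-synthetase complex, while others are free. When a charged tRNA runs short, the kinase GCN2 (gene EIF2AK4) senses the uncharged tRNA and raises translation of the transcription factor ATF4, which is known to act on the genes of many cytosolic synthetases. The mitochondrial enzymes serve the few proteins encoded by mitochondrial DNA, and GARS and KARS each make both the cytosolic and the mitochondrial enzyme from a single gene.

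The libraries held 8106587, 11885877 and 2670690 gene reads at 125 µM, 10185870, 11112322 and 2480964 at 2.5 µM and 10058205, 4925686 and 4023991 in controls. Levels of a gene are given as CPM, its reads scaled to a common library size, and 3 reads correspond to 0.252 CPM in the deepest library and 1.21 CPM in the shallowest. On the first principal component of all tested genes, which held 53.5% of the variance, the third 2.5 µM library, the shallowest of the 9, lay at 17.7, while the other two of its group lay at -9.28 and -9.08. The 125 µM libraries lay between 30.7 and 39.8 and the controls between -50.0 and -24.8. Reads in introns made up 6.89 to 7.34% of gene reads at 125 µM, 6.46 to 8.97% at 2.5 µM and 7.73 to 8.60% in controls. Hepatocyte markers were abundant: the 10 on the list summed to between 45817 and 51598 CPM at 125 µM, 62174 and 73498 CPM at 2.5 µM and 70044 and 93442 CPM in controls, and 6 of them fell and 1 rose at 125 µM against control (19.9% of all tested genes fell and 20.3% rose). The 6 blood and endothelial markers summed to at most 4.73 CPM in any library, with PTPRC, CD3E and HBB at 0 reads in all 9. Of 5 fibroblast and stellate markers, COL1A2, LUM and DCN had 0 reads in all 9 libraries. PDGFRB made up nearly the whole of that list, which summed to between 9.63 and 13.6 CPM at 125 µM, 18.2 and 26.8 CPM at 2.5 µM and 20.0 and 23.9 CPM in controls. The part of these marker shifts in the synthetase values was not tested, and in bulk RNA fewer cells of a kind and less RNA per cell cannot be told apart.

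The promoters of the synthetase genes were searched for an element of the amino acid response. It was TGATGNAA, the element bound by ATF4 together with C/EBP proteins, on both strands (its reverse complement is TTNCATCA), in the window from 250 bases before to 50 bases after each RefSeq start site on GRCh38.p14. Of the 16 cytosolic genes with a promoter in the RefSeq table, 7 held a match (43.8%). Of the 14 mitochondrial genes with a promoter, 1 did (7.14%), beside 4.46% of all 27305 genes for which RefSeq windows were given; the difference between the sets was not tested. DARS, LARS, VARS, YARS, AARS2 and VARS2 had no entry. The 8 matches are shown 5′ to 3′ on the strand of the gene, with the motif in capitals and 10 bases on either side, because they show where the motif lies in the genes whose values follow.
AARS: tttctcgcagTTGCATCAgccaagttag
CARS: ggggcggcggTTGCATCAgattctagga
GARS: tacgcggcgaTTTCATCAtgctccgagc
IARS: tttcagcgcgTTGCATCAcctccgtgcg
MARS: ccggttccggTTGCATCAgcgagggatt
NARS: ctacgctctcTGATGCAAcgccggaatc
TARS: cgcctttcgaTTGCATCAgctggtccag
YARS2: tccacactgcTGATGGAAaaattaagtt

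The cytosolic matches lay close to the start site in 6 of the 7 genes: the first base of the motif was at position -33 in GARS (chr7:30594835-30594862, plus strand), -13 in IARS (chr9:92293693-92293720, minus strand), -4 in MARS (chr12:57488054-57488081, plus strand) and -2 in CARS (chr11:3057408-3057435, minus strand), counting the first transcribed base as 1 and the base before it as -1. In TARS (chr5:33440957-33440984, plus strand) it was at 3 and in NARS (chr18:57621805-57621832, minus strand) at 15. The AARS match (chr16:70289676-70289703, minus strand) began at -187 and the YARS2 match (chr12:32756077-32756104, minus strand) at -197. The letters TTGCATCA, or their reverse complement, were present in 6 of the 7 cytosolic matches, and GARS had TTTCATCA. A match is a description of these letters in this window, not a measured binding site. HARS and HARS2, the cytosolic and mitochondrial histidine genes, are transcribed away from each other, and the 84 bases between their RefSeq start sites (chr5:140691371-140691454, plus strand, GRCh38.p14) hold no match.
HARS to HARS2: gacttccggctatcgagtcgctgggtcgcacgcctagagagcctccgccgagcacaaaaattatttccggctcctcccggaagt

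Levels can be compared between genes only per exon length, as RPKM (exon reads divided by exon length and by the size of the library, computed by the authors). Among the cytosolic genes KARS, the lysine enzyme, had the highest mean, with 66.6, 67.2 and 62.5 RPKM at 125 µM, 64.3, 68.0 and 74.2 RPKM at 2.5 µM and 52.2, 62.9 and 59.7 RPKM in controls. The groups overlapped. QARS and DARS, the glutamine and aspartate enzymes, had nearly the same mean over the 9 libraries (59.9 RPKM each), and the ranges of all 3 genes overlapped. CARS, the cysteine enzyme, was the lowest cytosolic gene, with 5.59 ± 0.596 RPKM at 125 µM, 4.42 ± 0.667 at 2.5 µM and 4.36 ± 0.186 in controls (mean ± SD, n = 3 each), just under WARS and HARS. The 20 cytosolic genes thus ranged in level from 4.79 to 64.2 RPKM over the 9 libraries. This order depends on the deposited exon lengths, which are 10037 bases over 51 exons for CARS and 2435 over 33 exons for FARSA. At 125 µM CARS had a mean of 59.3 CPM and FARSA of 56.2 CPM, but 5.59 and 22.7 RPKM. Whether these lengths match the transcripts present was not tested.

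The mitochondrial genes were mostly lower. IARS2, the mitochondrial isoleucine enzyme, stood apart with 48.8 ± 4.10 RPKM at 125 µM, 47.2 ± 2.71 at 2.5 µM and 41.7 ± 3.91 in controls (mean ± SD, n = 3 each). RARS2, the arginine enzyme, came next with a mean of 18.5 RPKM over the 9 libraries, then NARS2, the asparagine enzyme, with 12.8. Every other mitochondrial gene had a mean under 10 RPKM, down to PARS2 with 1.55 and SARS2 with 0.988 RPKM. SARS2 had 232 gene reads and PARS2 255 over all 9 libraries, so their values are the least precise of the tested members. MARS2 is a gene of 1 exon (chr2:198570087-198573113 on hg19) that lies within the feature AC011997.1, and 452 reads were assigned to that feature. Whether reads of MARS2 were counted there was not tested, so its lack of reads does not show that it was not transcribed.

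**Figure D1:**
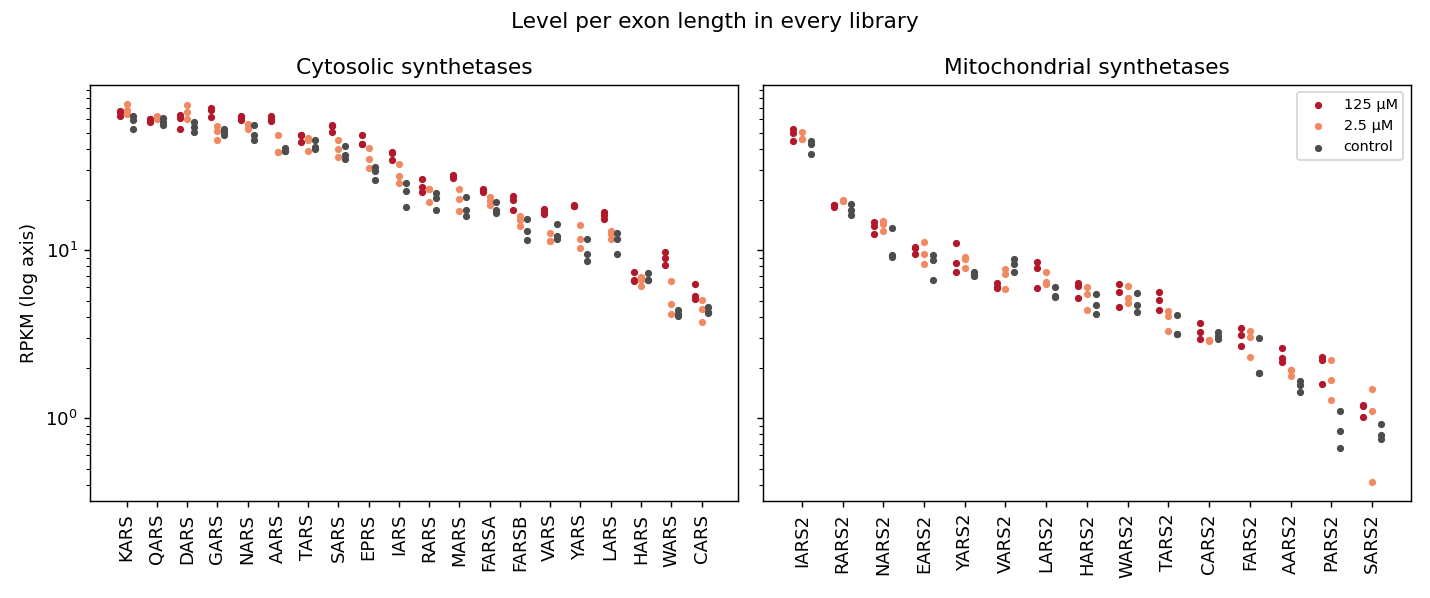
RPKM (log axis) of the 35 synthetase genes with reads, in every library at 125 µM, 2.5 µM and control (points, 3 per group), ordered by mean within each compartment. KARS is highest and CARS lowest among the cytosolic genes, and IARS2 lies above every other mitochondrial gene.

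The first comparison asked how 125 µM TBOEP changed the synthetase transcripts relative to DMSO. Of the 20 cytosolic genes, 13 were higher at 125 µM, 0 were lower and 7 did not pass the test (edgeR's quasi-likelihood test, adjusted p under 0.05 over all 12901 genes). WARS, YARS and IARS, the tryptophan, tyrosine and isoleucine enzymes, rose most. Over all tested genes, 20.3% were higher and 19.9% lower in this comparison. The median log2 fold change of the cytosolic genes was 0.34 (range -0.14 to 1.00), beside 0.00 for all tested genes. In 14 of the 20 every 125 µM library lay above every control, which held for 25.6% of all tested genes. No cytosolic gene was lower at an unadjusted p under 0.05 either, and DESeq2 called 0 lower and 12 higher.

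WARS, which loads tryptophan and whose transcript is also known to respond to interferon, changed most among the cytosolic genes. It had 62.1, 52.3 and 56.5 CPM at 125 µM, 27.1, 32.1 and 42.4 CPM at 2.5 µM and 28.9, 28.5 and 27.7 CPM in controls (scaled by TMM). Every 125 µM library was above every other library, and the third 2.5 µM library was above the other two of its group. Its log2 fold change at 125 µM against control was 1.00 ± 0.13 (SE), a 2.00-fold difference, with adjusted p = 6.42e-05 in edgeR's quasi-likelihood test. It was the only one of the 35 still called when a change above 1.5-fold was required (adjusted p = 0.0134). WARS (chr14:100800125-100843142, minus strand, hg19) overlaps WDR25, to which 150 reads were assigned beside 2557 for WARS.

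YARS, the tyrosine enzyme, had 158, 158 and 155 CPM at 125 µM, 90.8, 107 and 123 CPM at 2.5 µM and 86.2, 103 and 87.2 CPM in controls. The 125 µM libraries were nearly identical and above all others, while the 2.5 µM and control libraries overlapped. Its log2 fold change at 125 µM against control was 0.77 ± 0.11 (adjusted p = 8.49e-05). YARS (chr1:33240840-33283754, minus strand, hg19) overlaps S100PBP, with 1585 reads beside 7706, and is uncertain to the extent that reads are shared.

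IARS, the cytosolic isoleucine enzyme and a member of the multi-synthetase complex, had 299.99, 275 and 299.5 CPM at 125 µM, 206, 228 and 265 CPM at 2.5 µM and 159, 203 and 182 CPM in controls. The groups stood in order with no overlap, and IARS was the cytosolic gene called in all 3 comparisons. At 125 µM against control its log2 fold change was 0.69 ± 0.11 (adjusted p = 1.98e-04). Its span on hg19 is chr9:94972489-95056038, minus strand.

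AARS, the alanine enzyme, had 279.6, 272 and 286 CPM at 125 µM, 180.3, 188 and 229.9 CPM at 2.5 µM and 198, 183 and 199 CPM in controls. Here the 2.5 µM libraries spread on both sides of the controls, and all 125 µM libraries were above both groups. The log2 fold change at 125 µM against control was 0.53 ± 0.09 (adjusted p = 5.35e-04). EPRS carries the glutamate and the proline enzyme in 1 protein and sits in the complex, and it had 234, 236 and 265 CPM at 125 µM, 171, 201 and 225 CPM at 2.5 µM and 156, 172 and 171 CPM in controls. Its 125 µM libraries lay above all others, and its log2 fold change against control was 0.56 ± 0.10 (adjusted p = 6.09e-04).

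The other 8 cytosolic genes that rose at 125 µM had smaller log2 fold changes: 0.51 for MARS (methionine), 0.51 for SARS (serine), 0.47 and 0.27 for FARSB and FARSA (the beta and alpha subunits of the phenylalanine enzyme), 0.45 for LARS (leucine), 0.36 for VARS (valine), 0.32 for GARS (glycine) and 0.25 for NARS (asparagine). In all 8 every 125 µM library lay above every control. FARSA and NARS were the least firm. FARSA lost its call without 125 µM library 1 (adjusted p = 0.0666), 125 µM library 2 (0.0602) or control library 3 (0.0857). NARS lost its call without 125 µM library 1 (adjusted p = 0.0755), 125 µM library 3 (0.05002), control library 1 (0.101) or control library 3 (0.0617). Counting exon reads in place of gene reads also left FARSA at an adjusted p of 0.0522 and NARS at 0.0646, and FARSA also missed the threshold in DESeq2 (0.0924) and with no filter on low counts (0.0648). MARS overlaps DDIT3, which was itself higher at 125 µM (0.46 ± 0.16 on the log2 scale, adjusted p = 0.0315) with 793 reads beside 10404 for MARS.

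The share of reads in introns was lower at 125 µM than in controls in 19 of the 20 cytosolic genes and in 14 of the 15 mitochondrial genes with reads, with AARS2 at 0 in all groups. Over all tested genes with intron reads the share was lower at 125 µM in 76.2%, so a lower intron share was common to most genes. SARS was the exception, at 9.48% of its reads at 125 µM, 7.51% at 2.5 µM and 6.25% in controls. Counted in exon reads, its log2 fold change at 125 µM against control was 0.39 in place of 0.51, and it was still called (adjusted p = 0.00297, edgeR's quasi-likelihood test). The median of the cytosolic genes was 0.29 in exon reads, in place of 0.34. Across the cytosolic genes the median intron share was 2.93% at 125 µM, 4.13% at 2.5 µM and 5.03% in controls.

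The 7 cytosolic genes that did not pass the test were CARS, RARS (arginine), KARS, TARS (threonine), DARS, QARS and HARS (histidine). CARS had 58.4, 54.8 and 64.6 CPM at 125 µM, 42.1, 56.0 and 47.3 CPM at 2.5 µM and 50.8, 49.5 and 48.0 CPM in controls. Each 125 µM library exceeded each control, but the log2 fold change was 0.24 ± 0.11 with an adjusted p of 0.0949. KARS had 254, 257 and 239 CPM at 125 µM, 246, 273 and 288 CPM at 2.5 µM and 215, 239 and 240.1 CPM in controls, with a log2 fold change at 125 µM against control of 0.12 ± 0.09 (adjusted p = 0.302). Its 125 µM libraries overlapped those of both other groups. KARS overlaps TERF2IP, with 4586 reads beside 16264. For RARS, TARS, DARS, QARS and HARS the log2 fold changes were 0.16, 0.06, 0.01, -0.03 and -0.14, with SEs of 0.08 to 0.10.

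Membership in the multi-synthetase complex was set beside these calls. Of the 8 synthetases of the complex 4 rose (IARS, EPRS, MARS and LARS), and of the 12 outside it 9 rose, beside 20.3% of all tested genes. The median log2 fold changes were 0.30 inside the complex and 0.34 outside it, and the difference between the sets was not tested. The 4 members of the complex that did not pass were DARS, KARS, QARS and RARS. Without GARS and KARS, whose genes also give the mitochondrial enzymes, 12 of the remaining 18 cytosolic genes were higher and the median was 0.40. Of the 10 cytosolic genes that rose and have a RefSeq promoter, 5 held the motif shown above, against 2 of the 6 that did not pass the test. It was present in 4.46% of all genes with RefSeq windows, and the difference between the cytosolic sets was not tested. WARS, the cytosolic gene of largest change, had no match in either of its windows.

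**Figure D2:**
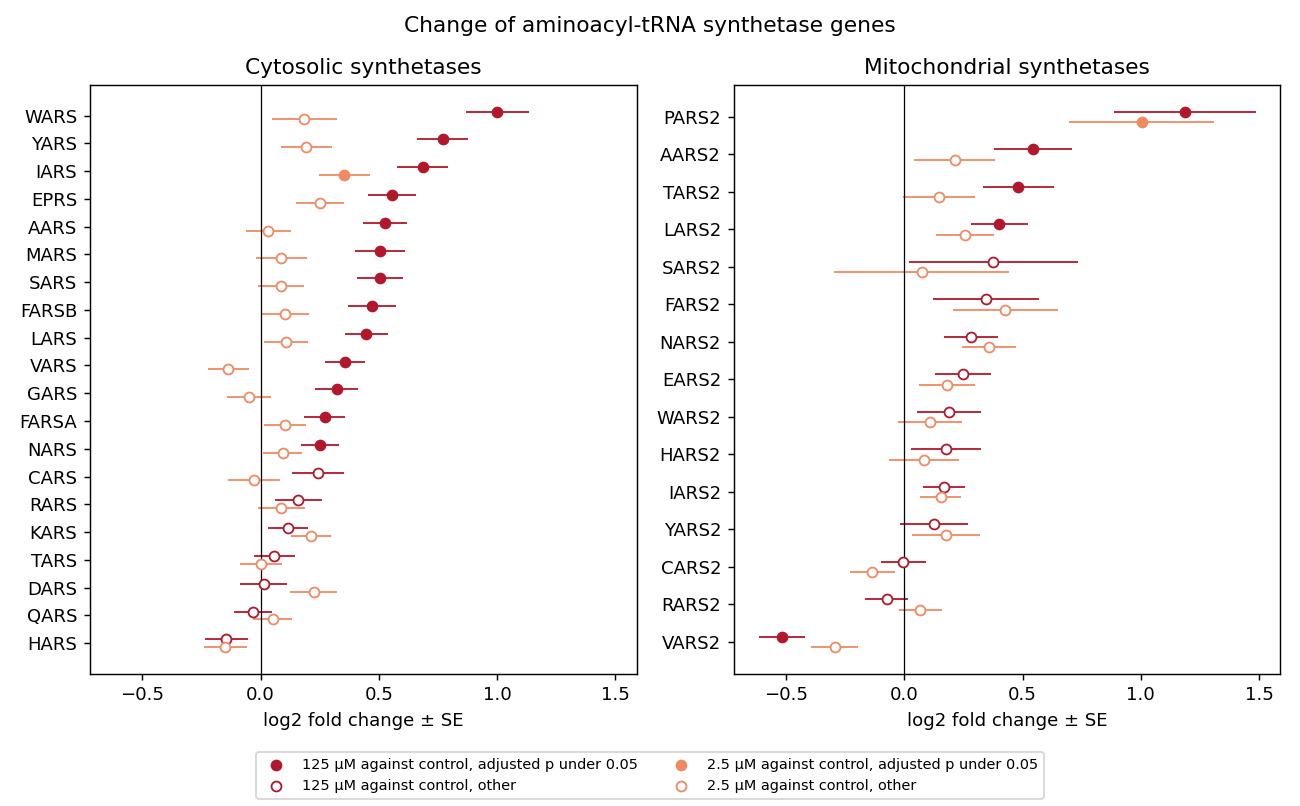
Log2 fold change ± SE of the cytosolic (left) and mitochondrial (right) synthetase genes at 125 µM and at 2.5 µM, each against control; filled points passed an adjusted p of 0.05 in edgeR's quasi-likelihood test. At 125 µM 13 cytosolic points are filled, all above 0, and 5 mitochondrial points, with VARS2 below 0; at 2.5 µM IARS and PARS2 are filled.

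Among the 15 tested mitochondrial genes, 4 were higher at 125 µM than in controls (PARS2, AARS2, TARS2 and LARS2), 1 was lower (VARS2) and 10 did not pass the test. Their median log2 fold change was 0.25 (range -0.52 to 1.19), and in 5 of them every 125 µM library lay above every control. Both shares, 4 of 15 called higher and 5 of 15 without overlap, stand beside 20.3% and 25.6% of all tested genes.

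VARS2, the mitochondrial valine enzyme, was the one synthetase that fell. It had 54.6, 52.0 and 50.3 CPM at 125 µM, 67.0, 53.6 and 64.2 CPM at 2.5 µM and 70.7, 78.4 and 77.2 CPM in controls. All libraries of both TBOEP groups lay below every control, and the second 2.5 µM library fell among the 125 µM ones. Its log2 fold change at 125 µM against control was -0.52 ± 0.10 (adjusted p = 9.28e-04), the smallest adjusted p of the mitochondrial genes. VARS2 (chr6:30876019-30894236, plus strand, hg19) overlaps GTF2H4, with 367 reads beside 4022.

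PARS2, the mitochondrial proline enzyme, had the largest estimate of all 35 genes, at a low level. It had 4.00, 5.56 and 5.14 CPM at 125 µM, 5.36, 3.25 and 4.44 CPM at 2.5 µM and 1.68, 2.77 and 2.31 CPM in controls. Every library of both TBOEP groups was above every control, and the TBOEP groups overlapped each other. The log2 fold change at 125 µM against control was 1.19 ± 0.30 (adjusted p = 0.00599), and without control library 1, the lowest, it was 0.93 with an adjusted p of 0.0583.

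AARS2, the mitochondrial alanine enzyme, had 9.83, 11.2 and 9.18 CPM at 125 µM, 8.22, 7.99 and 8.48 CPM at 2.5 µM and 7.65, 6.73 and 6.41 CPM in controls. Each 125 µM library was above each of the other 6. The log2 fold change against control was 0.54 ± 0.17 (adjusted p = 0.0168), and the call was lost without 125 µM library 2 (adjusted p = 0.106) and in DESeq2 (0.0872). TARS2, the threonine enzyme, had 24.0, 21.0 and 18.4 CPM at 125 µM, 19.1, 15.1 and 17.0 CPM at 2.5 µM and 14.5, 14.2 and 18.2 CPM in controls. The lowest 125 µM library was barely above the highest control. Its log2 fold change was 0.48 ± 0.15 (adjusted p = 0.0192), and the call was lost without 125 µM library 1 (adjusted p = 0.0991), 125 µM library 2 (0.0522) or control library 1 (0.0889).

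LARS2, the leucine enzyme, had 48.3, 44.8 and 35.2 CPM at 125 µM, 39.7, 37.0 and 43.6 CPM at 2.5 µM and 33.7, 29.7 and 36.2 CPM in controls. The third 125 µM library fell within the range of the controls. Its log2 fold change was 0.40 ± 0.12 (adjusted p = 0.0161), and the call was lost without 125 µM library 1 (adjusted p = 0.0875) or 125 µM library 2 (0.0656) and in limma on log2(RPKM + 0.5) (0.0639). IARS2 had 186, 208 and 218 CPM at 125 µM, 192, 200.3 and 214 CPM at 2.5 µM and 169, 187 and 188 CPM in controls, with a log2 fold change of 0.17 ± 0.09 at 125 µM against control (adjusted p = 0.144). Its groups overlapped. The other 9 mitochondrial genes that did not pass had log2 fold changes between -0.07 (RARS2) and 0.38 (SARS2, SE 0.36).

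**Figure D3:**
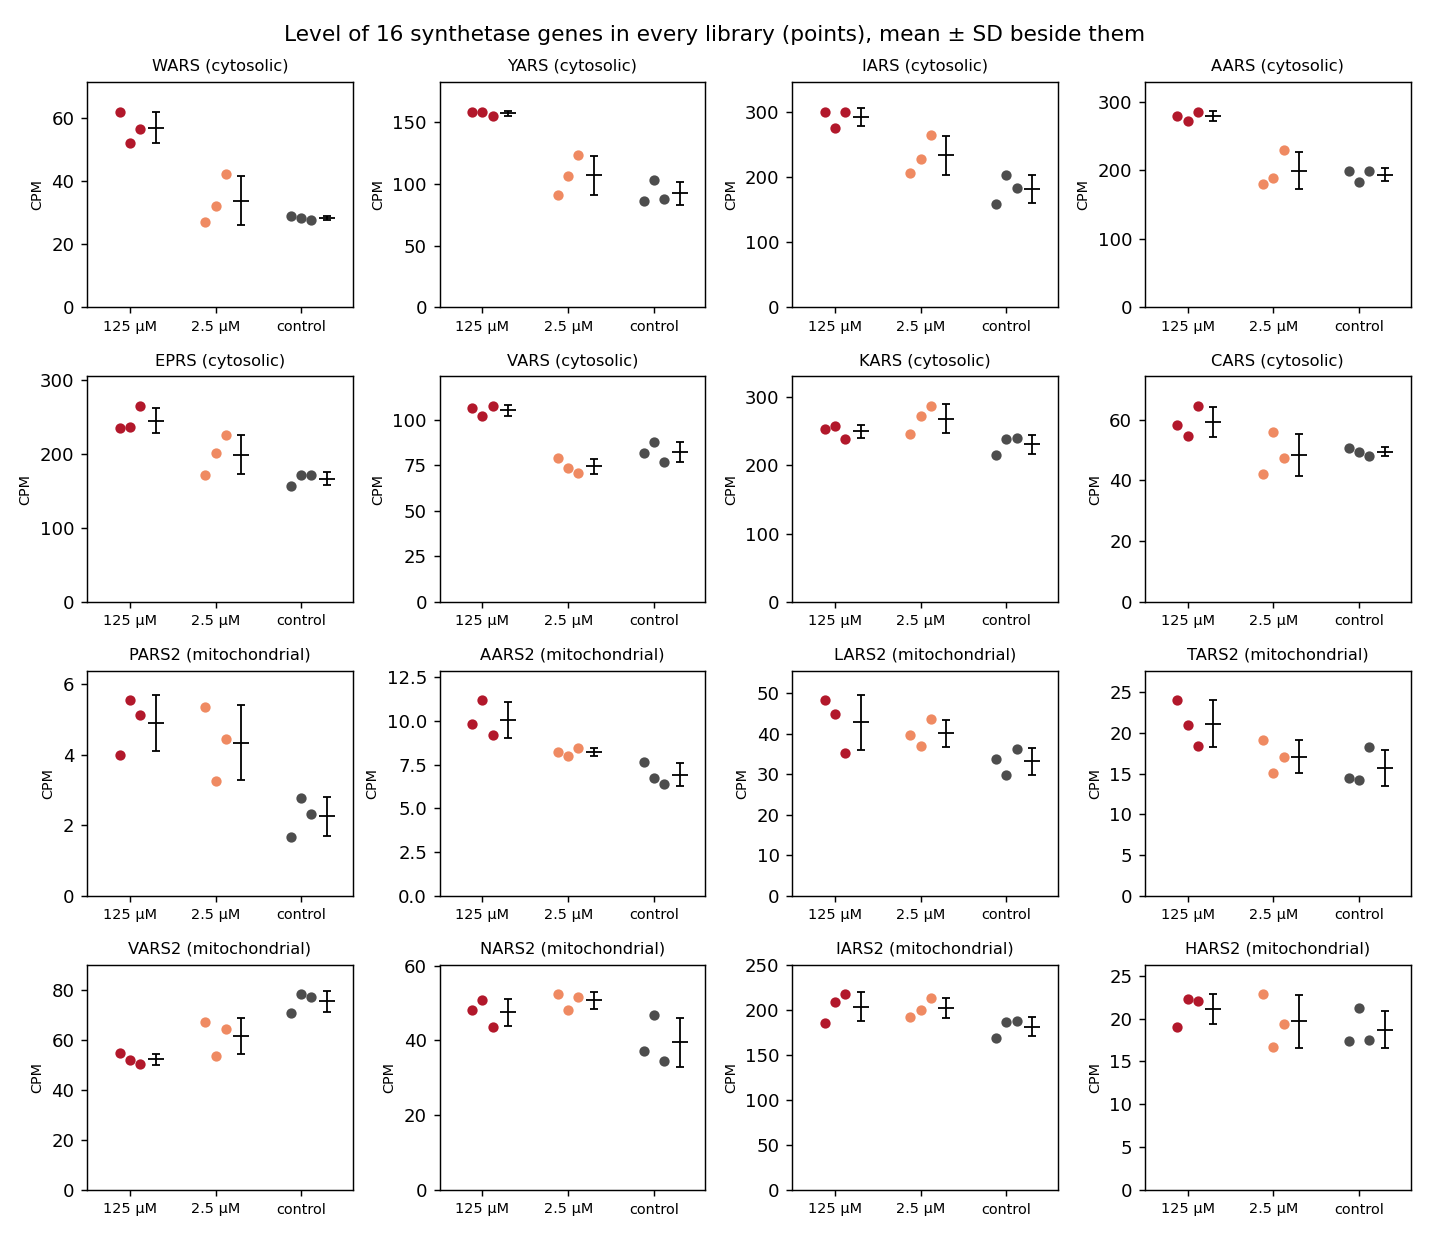
CPM of 16 synthetase genes in every library (points; libraries 1 to 3 from left to right) at 125 µM, 2.5 µM and control, with the mean ± SD of 3 libraries beside them; axes start at 0. For WARS, YARS, IARS, AARS and EPRS all 125 µM points lie above all others, and for VARS2 they lie below all controls.

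The summed reads of each compartment were taken as a share of all gene reads of the library. These reads are not scaled by TMM, so the shares also move when abundant transcripts of other genes change. The 20 cytosolic genes took 0.368, 0.362 and 0.372% of gene reads at 125 µM, 0.293, 0.307 and 0.336% at 2.5 µM and 0.268, 0.302 and 0.283% in controls. The 125 µM libraries lay above all others, and the 2.5 µM libraries overlapped the controls. The mean was 0.367 ± 0.00528% at 125 µM against 0.284 ± 0.0167% in controls (SD, n = 3 each), a ratio of 1.29. The mitochondrial genes took 0.0618, 0.0636 and 0.0617% at 125 µM, 0.0633, 0.0564 and 0.0641% at 2.5 µM and 0.0514, 0.0598 and 0.0568% in controls. Here the 125 µM libraries also lay above every control, with a ratio of means of 1.11, but they overlapped the 2.5 µM libraries. That separation depended on IARS2, the most abundant of these genes. Without it the mitochondrial share was 0.0429, 0.0425 and 0.0395% at 125 µM and 0.0353, 0.0406 and 0.0386% in controls, and the groups overlapped. Summed as RPKM, so that long genes do not weigh more, the ratios of 125 µM over control were 1.29 for the cytosolic and 1.18 for the mitochondrial genes, IARS2 included. The cytosolic over mitochondrial ratio of reads was 5.89 ± 0.182 at 125 µM, 5.10 ± 0.425 at 2.5 µM and 5.08 ± 0.130 in controls (mean ± SD, n = 3 each). Scaled by TMM, the cytosolic sums were 3614 ± 41.0 CPM at 125 µM, 3131 ± 261 at 2.5 µM and 2897 ± 58.5 in controls. The mitochondrial sums were 614 ± 12.3 CPM at 125 µM, 614 ± 30.1 at 2.5 µM and 570 ± 25.1 in controls (mean ± SD). On this scale the mitochondrial means of both TBOEP groups were nearly equal. No test was made of these sums.

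**Figure D4:**
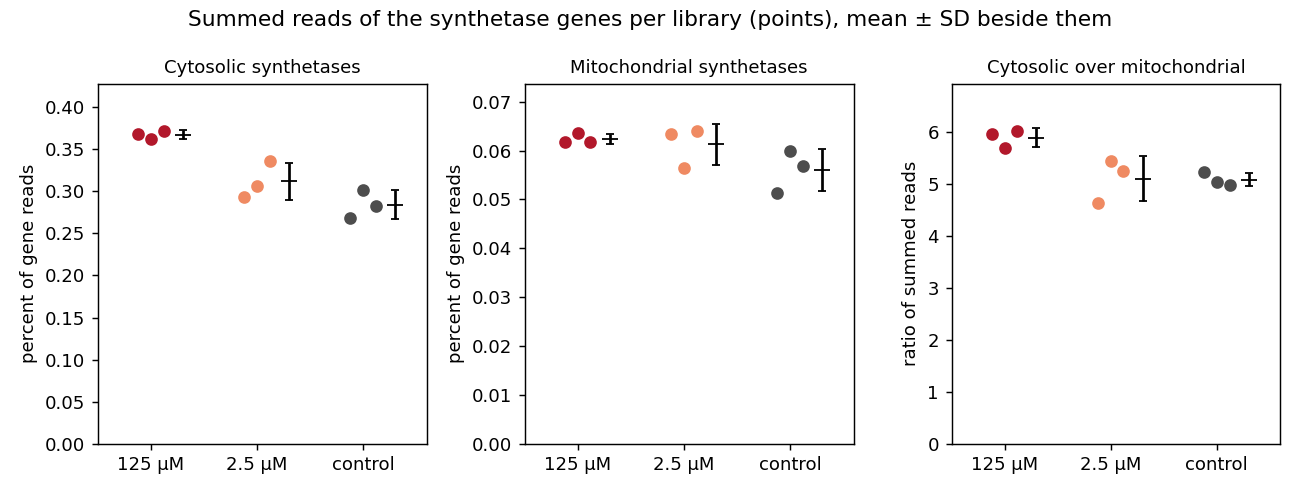
Share of gene reads (percent) taken by the cytosolic and the mitochondrial synthetase genes, and the ratio of their summed reads, in every library (points) with the mean ± SD of 3 libraries; axes start at 0. The cytosolic share was 0.367% at 125 µM and 0.284% in controls on average, and the ratio was 5.89 at 125 µM and 5.08 in controls.

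For 15 amino acids both the cytosolic and the mitochondrial gene were tested, which gave 16 pairs (methionine was left out, since MARS2 had 0 reads; EPRS pairs with both EARS2 and PARS2, and FARS2 with both subunits of the cytosolic enzyme). At 125 µM against control the estimate was larger in the cytosolic gene in 10 pairs and in the mitochondrial gene in 6. The log2 ratio of the cytosolic over the mitochondrial gene was higher in every 125 µM library than in every control in 6 pairs (CARS, EPRS with EARS2, IARS, VARS, WARS and YARS) and lower in 1 (EPRS with PARS2). With 3 libraries against 3 an exact permutation test cannot give a two-sided p below 0.1, so no pair can pass. The same count over other pairs of genes was not made, so these counts describe the 16 pairs and were not tested as a difference between compartments.

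The valine pair moved in opposite directions: the log2 ratio of VARS over VARS2 was 0.96, 0.97 and 1.10 at 125 µM, 0.23, 0.45 and 0.14 at 2.5 µM and 0.21, 0.16 and -0.01 in controls. The 125 µM libraries stood well clear, and the mean ratio differed by 0.89 on the log2 scale between 125 µM and control. The tryptophan pair, WARS over WARS2, had log2 ratios of 1.45, 1.04 and 1.62 at 125 µM, 0.42, 0.57 and 0.81 at 2.5 µM and 0.62, 0.38 and 0.49 in controls, a difference of 0.87 between 125 µM and control. The tyrosine pair differed by 0.60 and the isoleucine pair by 0.52. YARS2 overlaps DNM1L, with 3415 reads beside 1211 for YARS2, and WARS2 overlaps RP11-418J17.1, with 1203 reads beside 1415 for WARS2. CARS2, of the cysteine pair, overlaps ING1, with 1324 reads beside 2817 for CARS2. The tyrosine, tryptophan and cysteine ratios are therefore uncertain to the extent that reads are shared. The log2 ratios of IARS over IARS2, in reads not scaled by length, were 0.69, 0.40 and 0.46 at 125 µM, against -0.09, 0.12 and -0.04 in controls. The alanine pair kept its ratio: AARS over AARS2 averaged 4.80 at 125 µM and 4.81 in controls on the log2 scale, with both genes called higher. For EPRS over PARS2 the mean log2 ratio was 0.58 smaller at 125 µM (5.66 against 6.24 in controls), since PARS2 had the larger estimate.

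HARS and HARS2, whose start sites are 84 bases apart, had log2 fold changes at 125 µM against control of -0.14 ± 0.09 and 0.18 ± 0.15, and neither passed the test (adjusted p = 0.224 and 0.366). HARS had 57.5, 58.8 and 65.0 CPM at 125 µM, against 67.8, 61.9 and 69.0 CPM in controls. HARS2 had 19.1, 22.24 and 22.02 CPM at 125 µM, against 17.4, 21.2 and 17.4 CPM in controls. Both overlapped between the groups. Their annotated spans on hg19 overlap as well (chr5:140052758-140071609 and chr5:140071011-140078889), so reads near the start sites could count for either gene. HARS2 also overlaps ZMAT2, with 4087 reads beside 1293 for HARS2, and HARS overlaps WDR55, with 1656 beside 4000. Among the other mitochondrial genes, EARS2 overlaps UBFD1 (13157 reads beside 3615) and SARS2 overlaps FBXO17 (865 beside 232). Their values are uncertain to the extent that reads are shared.

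**Figure D5:**
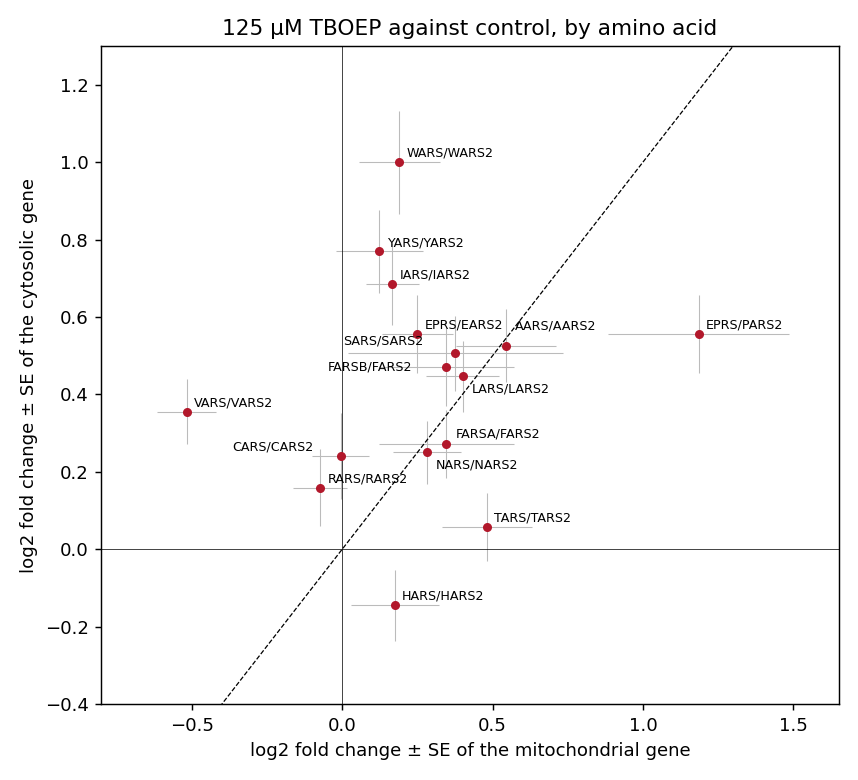
Log2 fold change ± SE at 125 µM against control of the cytosolic gene (vertical axis) and the mitochondrial gene (horizontal axis) for 16 pairs; the dashed line marks equal change. WARS, YARS, IARS and VARS lie above the line, with VARS2 below 0, and EPRS with PARS2 lies farthest to the right.

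The second comparison asked what 2.5 µM TBOEP changed relative to DMSO. It shares its controls with the first. Of the 20 cytosolic genes 1 was higher (IARS), and of the 15 mitochondrial genes 1 was higher (PARS2), where 6.02% of all tested genes were higher and 5.03% lower. The median log2 fold change was 0.09 for the cytosolic and 0.15 for the mitochondrial genes, beside -0.01 for all tested genes. IARS, with the values given above, had a log2 fold change of 0.35 ± 0.11 (adjusted p = 0.0461), and PARS2 of 1.00 ± 0.30 (adjusted p = 0.0472). Both calls sat just inside the threshold. IARS lost it when any library other than 2.5 µM library 1 or control library 2 was left out (adjusted p = 0.0569 to 0.229). PARS2 lost it when any library other than 2.5 µM library 2 or control library 2 was left out (adjusted p = 0.0592 to 0.287). Without the third 2.5 µM library, which stood apart, IARS had an adjusted p of 0.169 and PARS2 of 0.0987.

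Next in order of adjusted p were KARS among the cytosolic genes and NARS2 among the mitochondrial genes. KARS had a log2 fold change of 0.21 ± 0.09 at 2.5 µM against control (adjusted p = 0.119), and each 2.5 µM library was above each control. NARS2, the mitochondrial asparagine enzyme, had 48.1, 50.8 and 43.7 CPM at 125 µM, 52.4, 48.1 and 51.7 CPM at 2.5 µM and 37.2, 46.9 and 34.4 CPM in controls. Every 2.5 µM library was above every control, and the 125 µM libraries overlapped both groups. Its log2 fold change was 0.36 ± 0.11 at 2.5 µM (adjusted p = 0.0557) and 0.28 ± 0.11 at 125 µM (adjusted p = 0.0613), each against control. Without control library 2, the highest, NARS2 passed at 2.5 µM (adjusted p = 0.00771) and at 125 µM (0.00619). VARS2 had a log2 fold change of -0.29 ± 0.10 at 2.5 µM (adjusted p = 0.0657), and its 2.5 µM libraries were all below the controls.

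The mean at 2.5 µM lay between the means at 125 µM and in controls for 11 of the 13 cytosolic genes called at 125 µM and for all 4 mitochondrial genes called higher there. Of all genes called higher at 125 µM, which were selected against the same controls, 81.7% had such a mean at 2.5 µM. Without that selection the mean at 2.5 µM lay above the control mean and below the 125 µM mean in 13 of the 20 cytosolic and 9 of the 15 mitochondrial genes, beside 26.9% of all tested genes, and it lay above the 125 µM mean in 3 cytosolic and 5 mitochondrial genes. Only genes higher at 125 µM than in controls can show the first order. The estimate at 125 µM was above 0 in 18 of the cytosolic, 12 of the mitochondrial and 6494 of all 12901 tested genes, so these shares also reflect that direction. The 2 exceptions among the called cytosolic genes were VARS and GARS, whose means at 2.5 µM were below those of the controls. In 10 of the 13 cytosolic and 2 of the 4 mitochondrial genes called higher at 125 µM the third 2.5 µM library was the highest of its group. Without that selection it was the highest in 13 of the 20 cytosolic and 7 of the 15 mitochondrial genes. The share over all tested genes was not counted, and on the first principal component this library lay nearest of its group to the 125 µM libraries.

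The third comparison set 125 µM against 2.5 µM TBOEP. Of the 20 cytosolic genes 10 were higher at 125 µM, 0 were lower and 10 did not pass, where 7.48% of all tested genes were higher and 7.44% lower. The median log2 fold change was 0.32 for the cytosolic and 0.08 for the mitochondrial genes. Of the 15 mitochondrial genes 0 were called by edgeR's quasi-likelihood test or by DESeq2, while 1 had an unadjusted p under 0.05 in each direction. Of the cytosolic genes, 0 were lower in either tool or at an unadjusted p under 0.05. WARS had a log2 fold change of 0.81 ± 0.13 between the concentrations (adjusted p = 0.00101). For VARS it was 0.49 ± 0.08 (adjusted p = 0.00154).

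VARS, the cytosolic valine enzyme, had 106, 102 and 108 CPM at 125 µM, 78.7, 73.3 and 70.7 CPM at 2.5 µM and 81.5, 87.7 and 76.7 CPM in controls. Its 125 µM libraries lay above all others, and its 2.5 µM libraries overlapped the controls on the low side. The other 8 called were YARS (0.58), AARS (0.49), MARS (0.42), SARS (0.42), GARS (0.37), FARSB (0.37), LARS (0.34) and IARS (0.33 on the log2 scale). WARS, YARS, VARS and AARS were called without any one library, and the other 6 each lost the call without at least 1, with adjusted p between 0.0523 and 0.156. The calls of FARSB, GARS, IARS, LARS and MARS were lost without 125 µM library 1, those of FARSB, IARS, LARS, MARS and SARS without 125 µM library 2, and those of GARS, IARS and LARS without 125 µM library 3. Those of FARSB, GARS, IARS and MARS were lost without 2.5 µM library 1, those of FARSB, IARS and LARS without 2.5 µM library 2, and that of IARS without control library 3. The call of IARS was also lost with RLE size factors (adjusted p = 0.0540) and with upper-quartile scaling (0.0517). DESeq2 called 8 of these 10 genes, without IARS (adjusted p = 0.0527) and FARSB (0.0506). EPRS just missed the threshold (0.31 ± 0.10, adjusted p = 0.0528). The mitochondrial genes of smallest adjusted p were TARS2 (0.33 ± 0.15, adjusted p = 0.139) and VARS2 (-0.22 ± 0.10, adjusted p = 0.151).

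The proteins that work with the synthetases were read in the same fit. Of the 3 scaffold proteins of the multi-synthetase complex 2 rose at 125 µM against control, where 20.3% of all tested genes did. AIMP1 had 61.3, 65.3 and 72.7 CPM at 125 µM, against 34.8, 55.6 and 43.4 CPM in controls, a log2 fold change of 0.58 ± 0.14 (adjusted p = 0.00366). The groups did not overlap. AIMP2 had 23.5, 20.2 and 19.5 CPM at 125 µM, against 16.4, 17.2 and 16.2 CPM in controls, a log2 fold change of 0.36 ± 0.13 (adjusted p = 0.0438), again without overlap. EEF1E1 had a log2 fold change of 0.12 ± 0.14 and did not pass (adjusted p = 0.533).

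Of 6 synthetase-like and editing proteins 2 rose and 1 fell at 125 µM against control, beside 20.3% higher and 19.9% lower over all tested genes. DTD1, which removes D-amino acids from mischarged tRNA, had 50.5, 53.7 and 56.5 CPM at 125 µM, against 27.6, 31.1 and 27.4 CPM in controls, with a log2 fold change of 0.89 ± 0.12 (adjusted p = 8.64e-05). Its 125 µM libraries were all above the controls. DTD1 was also the 1 gene of the 6 called at 2.5 µM against control (0.43 ± 0.13, adjusted p = 0.0421). There 6.02% of all tested genes were higher. YRDC, which acts in a modification next to the anticodon of tRNA, rose by 0.41 ± 0.10 on the log2 scale (adjusted p = 0.00570). PSTK, the kinase on the route to selenocysteinyl-tRNA, fell, with a log2 fold change of -0.51 ± 0.20 (adjusted p = 0.0498).

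Of 8 genes for carriers that bring charged tRNA to the ribosome and their partners, 4 rose and 4 did not pass the test, beside 20.3% higher over all tested genes. EEF1B2, an exchange factor for the cytosolic carrier, had 933, 889.8 and 881 CPM at 125 µM, against 532, 561 and 509 CPM in controls. The groups stood apart, with a log2 fold change of 0.76 ± 0.11 (adjusted p = 1.05e-04). EEF1B2 was also the 1 gene of the 8 called at 2.5 µM against control (0.59 ± 0.11, adjusted p = 0.00792). There 6.02% of all tested genes were higher. TSFM and MTIF2, mitochondrial elongation and initiation factors, rose by 0.50 ± 0.16 and 0.33 ± 0.10 (adjusted p = 0.0210 and 0.0169). EEF1A2, a low-level form of the cytosolic carrier at under 5 CPM in every library, rose by 1.29 ± 0.41 (adjusted p = 0.0215).

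A further list held 12 genes of uncharged tRNA sensing, of its ATF4 arm (ATF4 itself, ASNS and DDIT3 among them) and of amino acid sensing by mTORC1. Of these, 5 rose and 1 fell at 125 µM against control, where 20.3% of all tested genes were higher and 19.9% lower. The gene for GCN2, EIF2AK4, fell: it had 96.4, 96.4 and 83.3 CPM at 125 µM, against 114, 129 and 124 CPM in controls, a log2 fold change of -0.39 ± 0.09 (adjusted p = 0.00237). Its groups did not overlap. The ATF4 transcript had 479, 459.9 and 463 CPM at 125 µM, against 504, 442 and 507 CPM in controls, a log2 fold change of -0.05 ± 0.10 that did not pass the test (adjusted p = 0.709). The groups overlapped, and a transcript level does not measure the ATF4 protein. ASNS, which makes asparagine and is a known ATF4 target, had 133, 149.9 and 149 CPM at 125 µM, against 49.8, 59.4 and 56.9 CPM in controls, a log2 fold change of 1.39 ± 0.14 (adjusted p = 1.02e-05). At 2.5 µM it had 69.6, 95.6 and 116 CPM, a log2 fold change against control of 0.74 ± 0.15 (adjusted p = 0.00971). It was the 1 gene of the 12 called at 2.5 µM, where 6.02% of all tested genes were higher. SESN2, a leucine sensor upstream of mTORC1, rose by 1.18 ± 0.13 (adjusted p = 1.35e-05), and IMPACT, an inhibitor of GCN2 activation, by 0.90 ± 0.22 (adjusted p = 0.00456). DDIT3 and RRAGD were the other two that rose.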

How the data were processed

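Stranded, poly(A)-selected libraries were sequenced as paired reads of 50 bases, and CLC Genomics Workbench mapped them to UCSC hg19 and counted them per gene, as the series' design text states. Neither the CLC version nor the strand setting of the counting is given in the sources used here. The deposited counts (total, exon, intron and unique gene reads) hold whole reads without scaling, per the file headers. RPKM, also deposited, divides exon reads by exon length and library size, and the authors' quantile-normalised signal was left unused. Total gene reads were tested: filterByExpr kept 12901 of 57773 features, TMM scaled them, and edgeR 4.0.16 (R 4.3.3) fitted its quasi-likelihood model to the 9 libraries, with the 3 groups as its sole factor. The p-values are two-sided, adjusted by Benjamini-Hochberg over the 12901 genes, with a threshold of 0.05. The fit was first tested on simulated data. Genes were named by rule: in each compartment the 5 called members of smallest adjusted p at 125 µM, the 2 of smallest adjusted p in each other comparison, called members against the majority and the lowest and highest by RPKM; up to 4 called members of each other list. HARS and HARS2, with FARSA, NARS and further members given by their fold change, were added to account for the rest. The members and lists were chosen with earlier results of these data known. The printed start positions are 1 above the deposited ones: with that step 68.8% of 33594 features shared with GENCODE had its start, and 1.15% had it without the step. RefSeq promoters (GRCh38.p14) matched 30 of the 36 members. Alternatives were DESeq2 1.42.0, limma 3.58.1 on log2(RPKM + 0.5) and log2(RPKM + 0.1), other scalings and filters, exon or unique reads, a replicate block, only the compared groups, a minimum of 1.5-fold and each library left out.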

Additional observations from a re-analysis of the deposited data

How the results depend on the processing

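No called synthetase changed direction in any of the 21 alternatives. Of the 18 called at 125 µM against control, 12 were called in every alternative but the 1.5-fold minimum and 12 without any one library. For the 1.5-fold minimum (glmTreat) the counts were 1 cytosolic and 0 mitochondrial at 125 µM against control, 0 and 0 at 2.5 µM against control, and 0 cytosolic at 125 µM against 2.5 µM, in place of 13, 5, 1, 1 and 10. Leaving out each library in turn gave 11 to 13 cytosolic and 2 to 6 mitochondrial calls at 125 µM against control (3, 2 and 3 mitochondrial without 125 µM library 1, 125 µM library 2 and control library 1), 0 to 2 and 0 to 2 at 2.5 µM against control, and 5 to 11 cytosolic at 125 µM against 2.5 µM (5, 5 and 6 without 125 µM library 1, 125 µM library 2 and 2.5 µM library 1). The 2 calls at 2.5 µM were the least firm: the cytosolic count was 0 with only the 2 groups compared and with either RPKM fit, and the mitochondrial count was 0 with those settings and in DESeq2, which gave PARS2 no adjusted p, and 2 with upper-quartile scaling and with no filter, where NARS2 also passed. At 125 µM against 2.5 µM the RPKM fits called 6 (pseudocount 0.5) and 5 (0.1) cytosolic genes. Same-numbered libraries of different groups did not deviate together (correlations -0.24 to 0.18, beside -0.27 to 0.27 for other numbers), and the replicate block left 0 mitochondrial genes at 2.5 µM against control (PARS2 adjusted p = 0.0694), 11 cytosolic genes at 125 µM against 2.5 µM, and 5066, 1274 and 1771 calls over all genes in the 3 comparisons against 5180, 1425 and 1925. Over all genes, the RPKM fit with pseudocount 0.5 called 2811 higher and 1413 lower at 125 µM against control (66.5% higher, against 50.5%) with the median of all genes at 0.09 (0.11 with pseudocount 0.1), 171 and 45 at 2.5 µM against control (79.2% higher, against 54.5%) and 666 and 302 at 125 µM against 2.5 µM (68.8%, against 50.1%). At 2.5 µM against control the count over all genes was 213 without control library 1, 468 without 2.5 µM library 3, 707 without control library 3, 731 with only the 2 groups compared and 0 in the RPKM fit with pseudocount 0.1. At 125 µM against 2.5 µM it was 1043, 799 and 1252 without 125 µM library 1, 2 and 3, 1015 without 2.5 µM library 2 and 864 in the RPKM fit with pseudocount 0.1, and the 1.5-fold minimum left 1085, 1 and 122 in the 3 comparisons. The RPKM sum gave the mitochondrial genes a ratio of 1.18 at 125 µM over control, against 1.11 in reads; the cause was not tested. Depth limits the low members most: PARS2 and SARS2 had 255 and 232 reads over all 9 libraries.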

Other observations

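Genes that make and finish tRNA were read in the same fit and are given as values. Of 23 genes of RNA polymerase III and its factors, which transcribe the nuclear tRNA genes, 5 were higher and 2 lower at 125 µM against control (edgeR's quasi-likelihood test, adjusted p under 0.05), beside 20.3% higher and 19.9% lower over all tested genes, with a median log2 fold change of 0.06. GTF3C6, a subunit of the factor that binds tRNA gene promoters, had 62.6, 69.3 and 68.6 CPM at 125 µM, against 44.7, 46.7 and 53.9 CPM in controls, a log2 fold change of 0.47 ± 0.09 (adjusted p = 0.00115) in groups that did not overlap. POLR3D, a subunit of the polymerase, had a log2 fold change of 0.34 ± 0.11 (adjusted p = 0.0244), while POLR3E, another subunit, fell by 0.26 (adjusted p = 0.0270). SSB, the La protein that binds the ends of new tRNA transcripts, fell: it had 184, 168 and 155 CPM at 125 µM, against 203, 214 and 199.6 CPM in controls, a log2 fold change of -0.28 ± 0.09 (adjusted p = 0.0241).

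Of 12 tested genes for processing and modification of mitochondrial tRNA, 2 were higher and 1 lower at 125 µM against control, again beside 20.3% and 19.9%, with a median log2 fold change of 0.09. TRMU, which adds sulphur to the anticodon of mitochondrial tRNAs, had 26.1, 24.2 and 23.9 CPM at 125 µM, against 35.0, 33.4 and 38.5 CPM in controls, a log2 fold change of -0.52 ± 0.11 (adjusted p = 0.00148) in groups that did not overlap. GTPBP3, which acts on the same anticodon base, had 23.1, 22.3 and 23.5 CPM at 125 µM, against 16.9, 16.03 and 17.4 CPM in controls and rose by 0.45 ± 0.12 (adjusted p = 0.0107). HSD17B10, a subunit of mitochondrial RNase P, rose by 0.51 ± 0.14 at 125 µM (adjusted p = 0.00846) and by 0.46 ± 0.14 at 2.5 µM (adjusted p = 0.0469), each against control. The 4 genes of the mitochondrial amidotransferase and formyltransferase (QRSL1, PET112, GATC and MTFMT) did not pass the test, with log2 fold changes between -0.22 and 0.14.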
